A study of Mus musculus with 6 samples.

Results

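The genes that move chromosomes, build kinetochores and time mitosis were compared among 3 mouse mammary cell lines, together with the kinesins that work outside mitosis. Members were chosen by symbol alone, with no expression value used: every gene of the deposited table named as a numbered Kif, Bub, Plk or Nek gene, a lettered Cenp or Aurk gene, any Ncap gene, Spc24, Spc25, Ndc80 or Nuf2. This gave 76 of 11417 genes. By known role, 46 of them make up what is called the mitotic core below: 11 mitotic kinesins, 15 inner centromere proteins, the 2 outer kinetochore proteins Cenpe and Cenpf, the 4 subunits of the Ndc80 complex, 2 Aurora kinases, 3 Bub proteins, 6 condensin subunits, Plk1, Plk4 and Nek2. A further 16 were interphase kinesins. The other 14 were Kif2a, which serves both the spindle and interphase cells, Plk2, Plk3, the other 7 Nek kinases, Cenpj, Cenpv, and Kif1bp and Aurkaip1, which match only by name. Listed relatives such as Kif1a, Kif5a, Kif17, Aurkc and Plk5 were not analysed here.

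The lines were BC44, HC11 and C57MG, all untreated, grown on plastic and labelled mammary epithelial, with 2 poly(A) RNA libraries per line. Insulin was at 5 µg/ml in the RPMI1640 medium of BC44 and HC11 and at 10 µg/ml in the DMEM of C57MG, HC11 alone received epidermal growth factor (10 ng/ml), and every medium held 10% serum. Line and medium therefore cannot be told apart. The labels do not say whether the 2 libraries of a line came from separate cultures, so p-values measure only the spread between these libraries. Values are RPKM, read counts scaled to the length of each gene and to the depth of its library. Levels of different genes are thus on one scale, but the gene lengths and counting behind them are not stated. Comparisons between genes, such as ratios and shares, depend on both. The table gives no read counts. Depth estimated from the steps between low values was 14240000 to 18480000 reads per library.

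The labelled cell type was checked against marker genes. The summed RPKM of 9 epithelial markers was 4828 to 5040 in BC44, 2254 to 3137 in HC11 and 65.4 to 137 in C57MG, where Krt14 made up most of it and Epcam and Cdh1 were at 0.949 and 1.09 RPKM in replicate 1 and listed at 0 in replicate 2. The median of the 9 epithelial markers was 107 and 110 RPKM in HC11 and 52.4 and 47.8 in BC44. Sum and median thus ordered BC44 and HC11 differently. The 9 mesenchymal markers summed to 7135 and 7368 RPKM in C57MG and to 257 to 381 in the other lines. The C57MG libraries thus went against their epithelial label. The 4 blood and endothelial markers summed to 22.5 and 20.3 RPKM in C57MG, of which Lyz2 made up 18.6 and 17.2, and to 3.59 to 4.58 in the other libraries. In BC44, Krt18 and Cldn3 were listed at 0 in both libraries. In bulk RNA, fewer cells of a kind and less RNA per cell cannot be told apart. That holds for dividing cells as for any cell type.

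Kinesins are motors that use ATP to walk along microtubules or to take them apart. One set slides, crosslinks and shortens the microtubules of the spindle and is made mainly by cells about to divide, while others carry organelles, vesicles and ciliary cargo in cells at any stage. Centromeres are marked by the histone variant Cenpa, on which a group of permanently bound proteins assembles. In mitosis the Ndc80 complex joins this platform to microtubules, the Bub proteins hold back anaphase until attachment is complete, and condensins compact the chromosomes. Aurora, Polo-like and Nek kinases time these steps, and mammary epithelium uses the same machinery whenever it proliferates.

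By the range of their line means, the mitotic core differed less across the 3 lines than the interphase kinesins did. No test was run on this description. By the share of genes whose libraries did not overlap, the order was turned between HC11 and C57MG (82.6% of the core, 75% of the interphase kinesins). The difference between the highest and lowest line mean on the log2(RPKM + 1) scale had a median of 0.43 over the 46 core genes, 0.32 over the 11 mitotic kinesins and 0.97 over the 16 interphase kinesins, against 0.775 over all 10759 genes tested. Of the core, 40 of 46 genes (87%) stayed within a 2-fold range over the lines, and so did 11 of 11 mitotic kinesins, 8 of 16 interphase kinesins and 61.6% of all genes. Expression of the core was also similar in level, its median RPKM being 26.1 in BC44, 23.3 for HC11 and 26.9 for C57MG. The plot of kinesin levels by library shows the tight columns of the mitotic motors beside the scattered interphase motors.

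**Figure D1:**
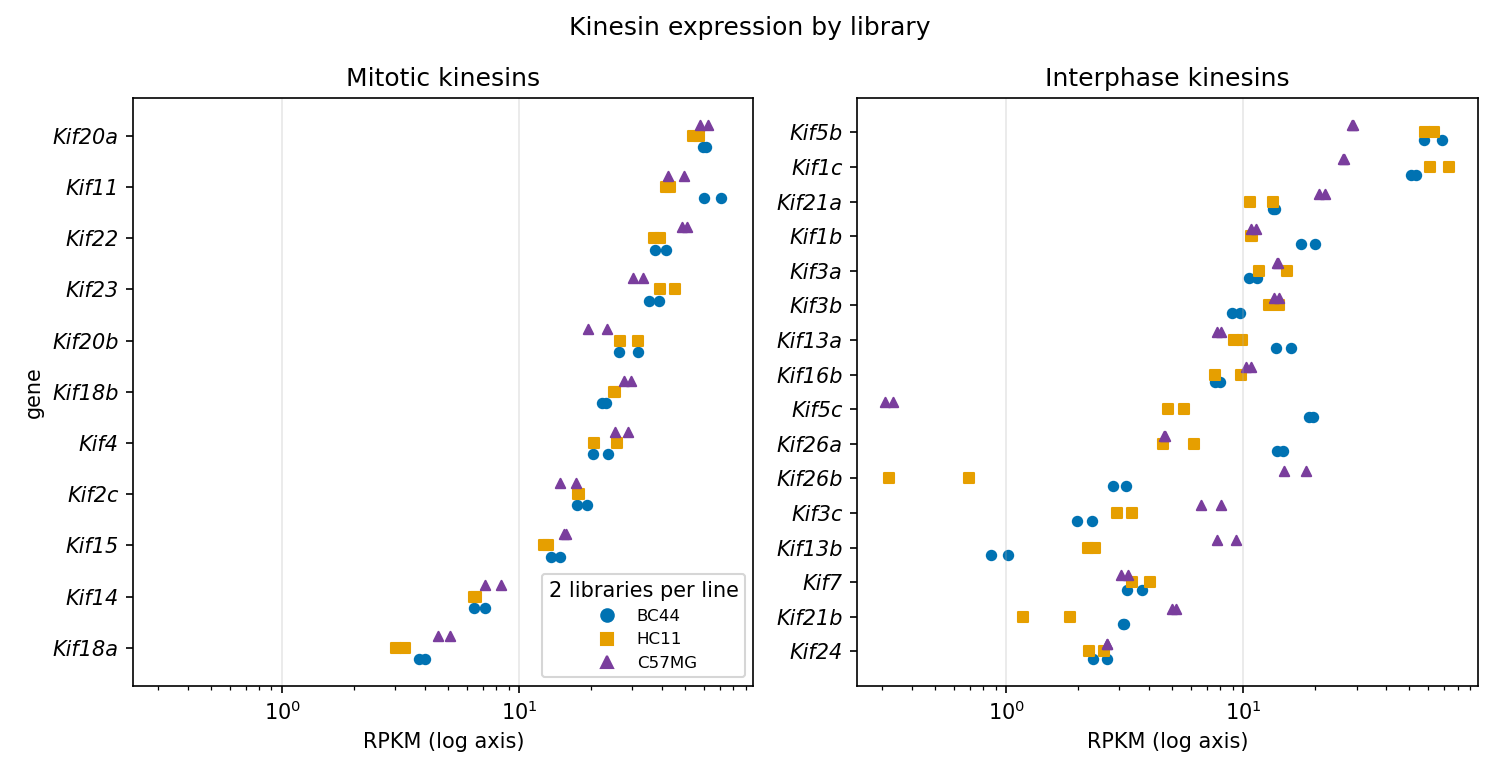
RPKM of 11 mitotic kinesins (left) and 16 interphase kinesins (right) in each of 6 libraries, on a log axis. Points of the 3 lines lie close together for the mitotic kinesins, whereas Kif5c, Kif13b and Kif26b spread the most between lines. The line means of Kif3c, Kif21b and Kif26a also differ by more than 3-fold.

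Each pair of lines was tested with limma on log2(RPKM + 1), with p-values adjusted over all genes and a threshold of 0.05. All 76 members passed the filter on low values. Between BC44 and HC11, 30 of 76 members passed (39.5%), where 47.7% of all genes did. Of these, 19 were higher in BC44 (24.7% of all genes were) and 11 in HC11 (23% of all genes). Between BC44 and C57MG, 50 of 76 passed (65.8%) against 71.7% of all genes. Of these, 19 were higher in BC44 (37.5% of all genes) and 31 in C57MG (34.1% of all genes). Between HC11 and C57MG, 46 of 76 passed (60.5%) against 70.5% of all genes. Of these, 16 were higher in HC11 (37.4% of all genes) and 30 in C57MG (33.2% of all genes). The total counts were below the background in each pair, and the counts of members higher in C57MG (40.8% and 39.5% of 76) were above theirs. The 3 comparisons share libraries and are not independent of each other.

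Within the mitotic core, 15 of 46 genes passed between BC44 and HC11, 25 between BC44 and C57MG and 26 between HC11 and C57MG. Of the 15, 12 were higher in BC44 (26.1% of the core, against 24.7% of all genes). Of the 25, 17 were higher in C57MG (37%, against 34.1% of all genes), and of the 26, 19 were (41.3%, against 33.2%). The totals that passed are 32.6%, 54.3% and 56.5% of the core, each below the share of all genes (47.7%, 71.7% and 70.5%). The median of the core was 0.076 for BC44 minus HC11, -0.12 for BC44 minus C57MG and -0.19 for HC11 minus C57MG, where all genes had medians of 0.024, 0.043 and 0.033. Single libraries moved the core medians: the first was 0.12 without BC44 replicate 1 and 0.036 without BC44 replicate 2. The second was -0.076 without BC44 replicate 1, -0.19 without C57MG replicate 1 and -0.058 without C57MG replicate 2, and the third was -0.12 without C57MG replicate 2. At least 2-fold differences that passed numbered 0, 2 and 5 of the 46 in these comparisons, where 12.5%, 29.8% and 27% of all genes had one. The libraries of the 2 lines did not overlap for 29, 35 and 38 of the 46 core genes (63%, 76.1% and 82.6%), where 73%, 87.9% and 86.2% of all genes did not overlap. No test was run on these medians and shares.

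**Figure D2:**
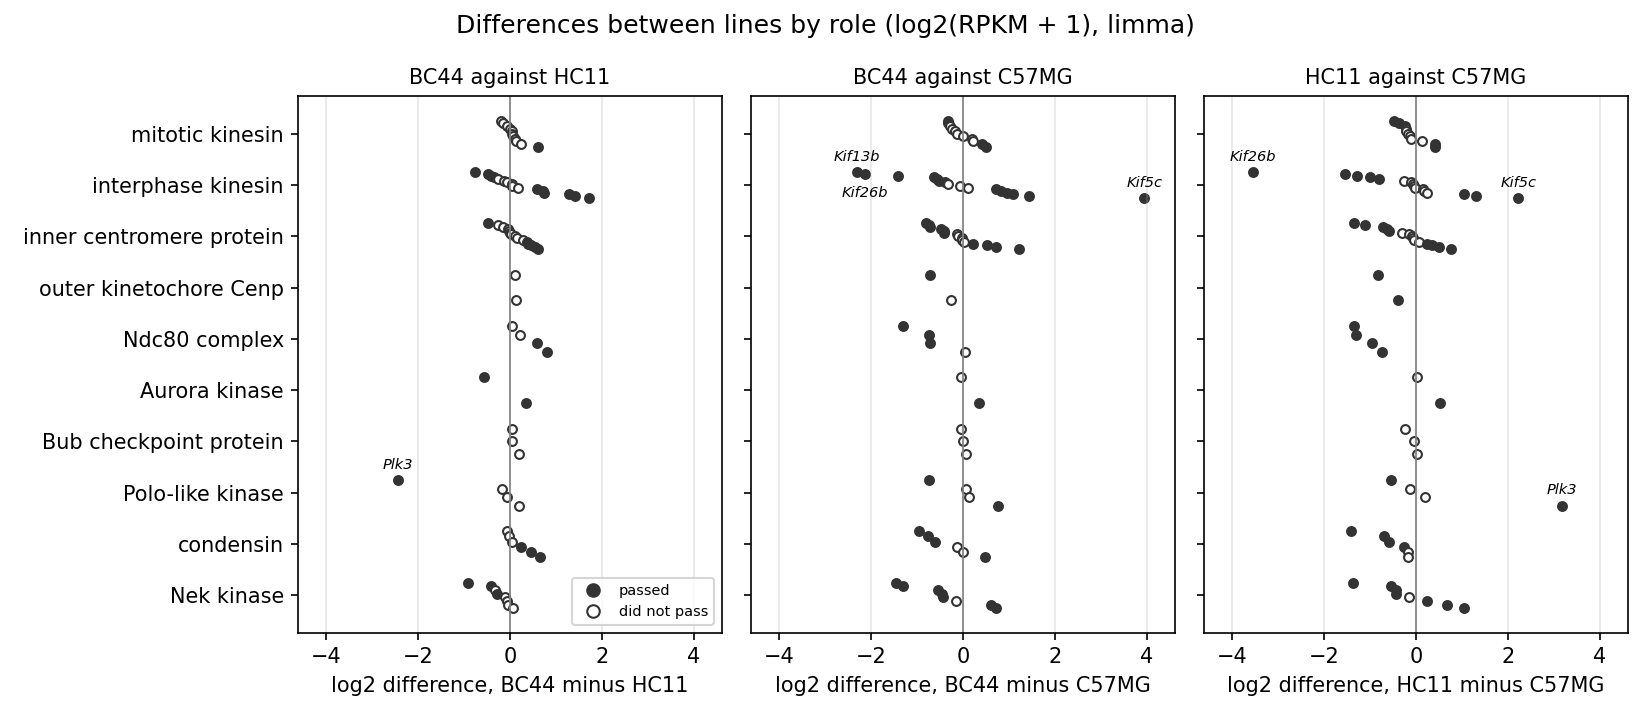
Fitted log2 difference of each member of 10 role groups, for BC44 minus HC11, BC44 minus C57MG and HC11 minus C57MG, with filled points for genes that passed limma's adjusted threshold of 0.05 and open points for the rest. Kif5c, Kif13b, Kif26b and Plk3 lie beyond 2 log2 units in at least 1 panel, while mitotic kinesins and Bub proteins stay near 0.

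Promoters were examined because many mitotic genes are known to share a pair of short elements near the start site. These are the cell cycle genes homology region, bound by the MuvB complex with B-Myb and FoxM1, and the CCAAT box, bound by NF-Y. Promoter sequences from RefSeq (build GRCm38, 250 bases before to 50 after the annotated start) matched 67 of the 76 members by symbol. The letters searched on both strands were TTTGAA or TTCGAA for the homology region and CCAAT for the CCAAT box. The last 100 bases before the start of 6 members are shown 5′ to 3′ in the direction of the gene, with matches to either motif in capitals. They were chosen to show a kinesin pair with both motifs, a promoter where the motifs overlap, a Ndc80 complex gene with the CCAAT box, and a mitotic and an interphase gene with neither.
Kif11, chr19:37376282-37376381, plus strand: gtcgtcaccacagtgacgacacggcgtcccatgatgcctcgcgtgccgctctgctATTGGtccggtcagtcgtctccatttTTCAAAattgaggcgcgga
Kif22, chr7:127042421-127042520, minus strand: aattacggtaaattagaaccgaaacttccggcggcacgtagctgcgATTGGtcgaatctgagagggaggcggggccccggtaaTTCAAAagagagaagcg
Cenpw, chr10:30200541-30200640, minus strand: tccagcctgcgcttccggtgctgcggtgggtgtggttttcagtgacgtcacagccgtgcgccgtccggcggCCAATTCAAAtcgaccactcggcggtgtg
Spc25, chr2:69206214-69206313, minus strand: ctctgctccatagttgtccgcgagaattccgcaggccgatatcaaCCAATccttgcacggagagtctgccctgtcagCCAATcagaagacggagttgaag
Nuf2, chr1:169531465-169531564, minus strand: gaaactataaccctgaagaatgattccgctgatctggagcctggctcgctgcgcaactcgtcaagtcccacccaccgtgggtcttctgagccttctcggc
Kif5c, chr2:49619186-49619285, plus strand: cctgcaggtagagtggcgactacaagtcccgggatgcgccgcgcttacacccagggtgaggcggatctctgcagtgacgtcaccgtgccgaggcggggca

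In Kif11 and Kif22 a CCAAT box, on the opposite strand as ATTGG, lay upstream of a homology region match that began 19 and 17 bases before the start. In Cenpw both motifs shared bases. Spc25 had 2 CCAAT boxes before the start and its homology region match after it, 24 bases downstream and so outside the stretch shown. Nuf2 and Kif5c had neither motif in the whole 300-base promoter. Over the 43 core genes with a promoter, the homology region letters occurred in 27 (62.8%), in 9 of 10 mitotic kinesins among them, against 2 of 13 interphase kinesins (15.4%), 2 of 7 Nek kinases and 16% of the 9074 genes of the deposited table with a promoter. Over all 27025 genes of the promoter table the share was 21.7%. Within 50 bases of the start, the letters occurred in 21 of 43 core genes (48.8%) and in 4.32% of the deposited genes. The 2 interphase kinesins with a match, Kif24 and Kif26b, had it 26 and 9 bases before the start. The CCAAT box occurred in 28 of 43 core genes (65.1%), 5 of 13 interphase kinesins (38.5%) and 43.4% of the deposited genes, and both motifs in 20 of 43 core genes (46.5%) and 6.83% of the deposited genes. A match of letters is a description and does not show that a factor binds.

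**Figure D3:**
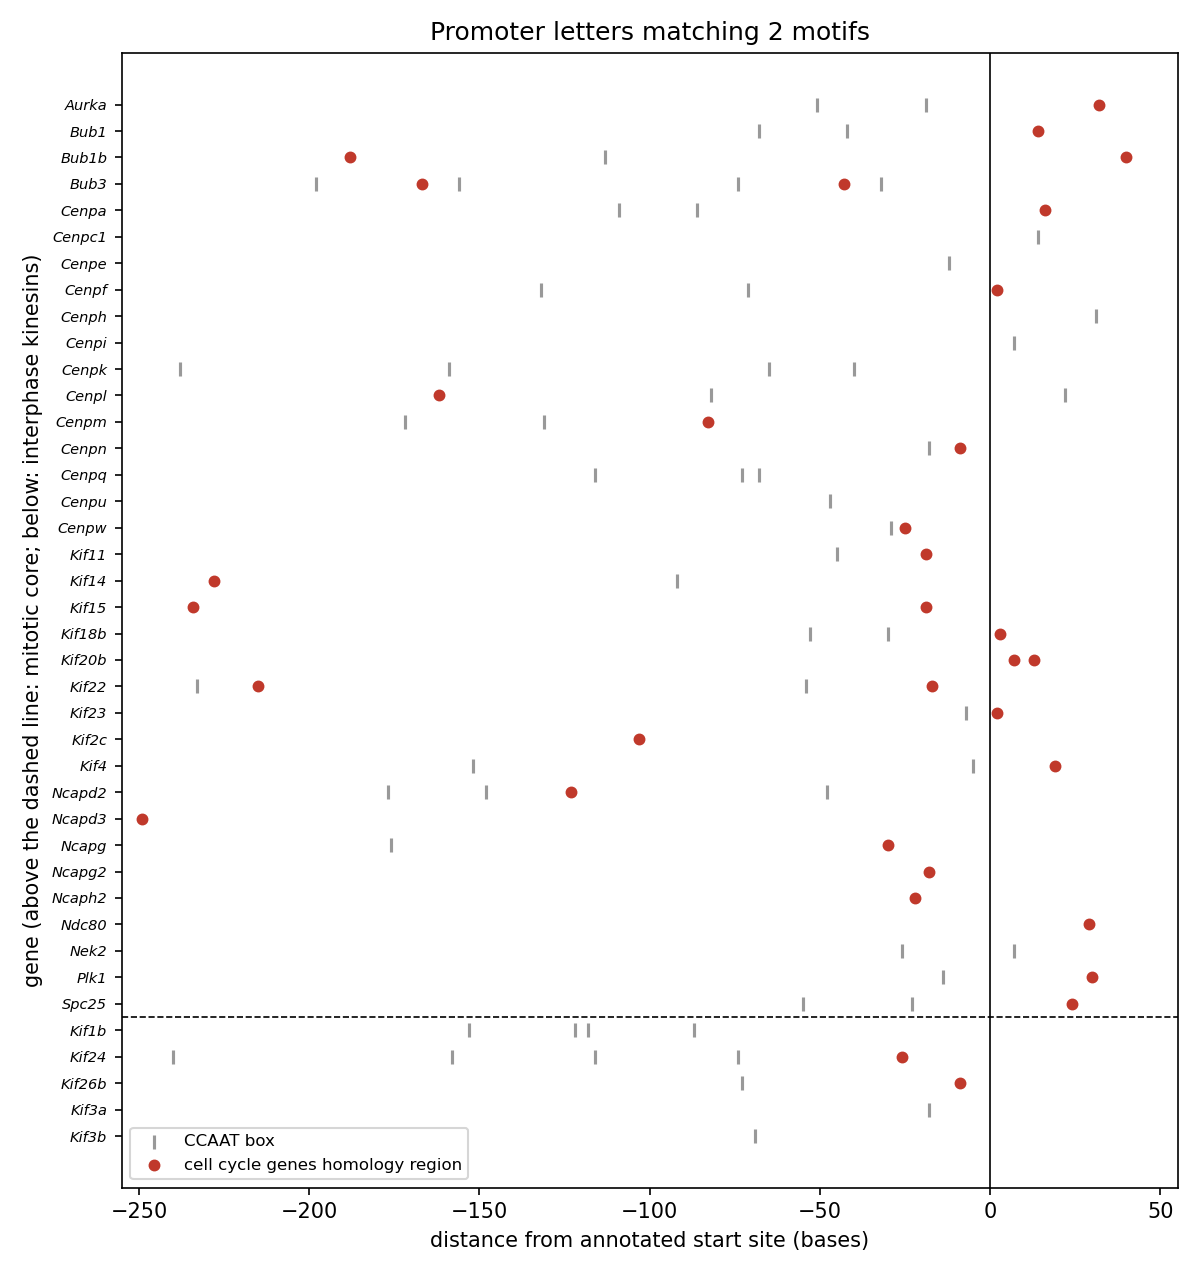
Positions of homology region letters (red points) and CCAAT boxes (grey ticks) relative to the annotated start site, in bases, for mitotic core genes (above the dashed line) and interphase kinesins (below) with at least 1 match. In 21 core genes a red point lies within 50 bases of the start.

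The 27 core genes with the homology region letters had a median range over the lines of 0.37 (log2) and a median RPKM of 28, and the 16 without had 0.48 and 14.4. The 2 groups covered nearly the same span, from 0.047 to 1.41 and from 0.037 to 1.34, and no test was run. Of the genes in the first group, 9 were mitotic kinesins and 5 inner centromere proteins, and of those in the second group 1 and 10.

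Among the 11 mitotic kinesins, Kif11 alone passed between BC44 and HC11 (9.09%, against 47.7% of all genes). Against C57MG, 4 passed for BC44 and 5 for HC11 (36.4% and 45.5%, against 71.7% and 70.5% of all genes). Libraries did not overlap for 54.5%, 90.9% and 81.8% of them in the 3 comparisons, against 73%, 87.9% and 86.2% of all genes. Kif11 (ENSMUSG00000012443), the tetrameric motor that pushes the spindle poles apart, had 60.3 and 70.7 RPKM in BC44, 43.3 and 41.4 in HC11, while C57MG had 42.5 and 49.3. Both BC44 libraries lay above all others. The log2 difference was 0.61 (SE 0.11, limma adjusted p = 0.00276) from HC11 and 0.50 (SE 0.11, adjusted p = 0.00378) from C57MG, while HC11 and C57MG overlapped.

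Kif23, the motor of the centralspindlin complex at the midbody, was at 35.3 and 38.7 RPKM in BC44, 39.1 and 45.5 in HC11, with 30.04 and 33.1 in C57MG. Only HC11 against C57MG passed, at 0.41 (adjusted p = 0.00868), and this did not hold without C57MG replicate 1 (adjusted p = 0.0652). Kif20a, which recruits Aurora kinase B to the central spindle, was at 59.3 and 61.1, 53.9 and 57.01, and 58.0 and 62.8 RPKM in the same order and passed in no comparison. Kif2c, the depolymerase that corrects faulty attachments, was at 17.5 and 19.4, 17.9 and 17.7, and 14.9 and 17.3 RPKM and also passed in none. For Kif2c the BC44 and HC11 libraries overlapped, and for Kif20a those of BC44 and C57MG. The exons of Kif20a overlap those of Cdc23 on the opposite strand over 29.3% of their length in GENCODE M21, and whether counting used the strand is not stated.

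The remaining mitotic kinesins were Kif4, Kif14, Kif15, Kif18a, Kif18b, Kif20b and Kif22. Their line means ran from 3.15 RPKM (Kif18a in HC11) to 49.7 RPKM (Kif22 in C57MG). Kif22, a chromosome arm motor, was highest in C57MG, with 48.4 and 50.9 RPKM against 41.5 and 37.4 in BC44 and 39.3 and 36.9 in HC11. It passed in both comparisons with C57MG, at -0.33 for BC44 (adjusted p = 0.0097) and -0.37 for HC11 (adjusted p = 0.00538). The first did not pass without BC44 replicate 2 (adjusted p = 0.0584) or C57MG replicate 2 (adjusted p = 0.0695). Kif18a, which limits chromosome oscillation at the metaphase plate, had 3.03 and 3.28 RPKM in HC11 against 4.52 and 5.12 in C57MG. This difference of -0.49 (SE 0.11, adjusted p = 0.00465) was the largest among mitotic kinesins between those lines, and without C57MG replicate 2 it missed the threshold (adjusted p = 0.0509). Kif20b, a motor of late cytokinesis, was lower in C57MG (19.5 and 23.4 RPKM) than in BC44 (26.3 and 31.6) and HC11 (26.6 and 31.6). These calls (0.42 and 0.42) were lost without C57MG replicate 1 (adjusted p = 0.163 and 0.154), and without BC44 replicate 2 (0.162) or HC11 replicate 2 (0.143) of the line compared. Kif15 and Kif18b passed once each, Kif15 between HC11 and C57MG and Kif18b between BC44 and C57MG, both higher in C57MG. Kif15 lost its call (-0.25, adjusted p = 0.0378) without C57MG replicate 1 or 2 (0.126 and 0.169) or HC11 replicate 1 or 2 (0.0579 and 0.106), and Kif18b (-0.32, adjusted p = 0.00777) without C57MG replicate 2 (0.0715). Kif4 and Kif14 passed in no comparison.

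Kif2a, a depolymerase used in spindles and in interphase, had 8.68 and 9.53 RPKM in BC44, 9.53 and 10.3 in HC11, while C57MG had 12.3 and 12.6. It passed against C57MG in BC44 (-0.41, adjusted p = 0.00587) and in HC11 (-0.30, adjusted p = 0.0248). The first missed the threshold without C57MG replicate 2 (adjusted p = 0.0504), and the second without C57MG replicate 1, C57MG replicate 2 or HC11 replicate 1 (adjusted p = 0.0971, 0.133 and 0.0867).

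Centromere genes were divided in direction, as all genes were. Between BC44 and C57MG, 4 of the 15 inner centromere genes passed with the higher level in BC44 (26.7%, against 37.5% of all genes). Another 6 passed with the higher level in C57MG (40%, against 34.1% of all genes). Cenpa, the centromeric histone H3 variant, had 60.9 and 56.6 RPKM in BC44, 46.8 and 44.0 in HC11, with 34.4 and 36.6 in C57MG. The 3 lines did not overlap, and Cenpa passed in each comparison (0.36, 0.71 and 0.35, adjusted p = 0.00831, 0.000128 and 0.00592 for BC44 minus HC11, BC44 minus C57MG and HC11 minus C57MG). Without BC44 replicate 1 the first missed the threshold (adjusted p = 0.0529).

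Cenpt, which links centromeric DNA to the Ndc80 complex, followed the same order with a wider span. It had 34.0 and 27.1 RPKM in BC44, 22.6 and 21.2 in HC11, while C57MG had 13.6 and 11.4, so that the BC44 mean was 2.44 times that of C57MG (1.22, SE 0.13, adjusted p = 9.1e-05). BC44 against HC11 (0.45, adjusted p = 0.0239) did not pass without BC44 replicate 1 (0.14), HC11 replicate 1 (0.0643) or HC11 replicate 2 (0.112, all adjusted p). Cenpm, a subunit of the same centromere platform, ran the other way, with 25.4 and 23.0 RPKM in BC44, 20.04 and 13.1 in HC11, while C57MG had 44.4 and 41.9. Its level in C57MG was 2.60 times the HC11 mean (-1.36, SE 0.17, adjusted p = 0.000271) and 1.78 times the BC44 mean (-0.81, adjusted p = 0.00378). The ratio of Cenpt to Cenpm RPKM was 1.34 and 1.18 in BC44, 1.13 and 1.62 in HC11, while C57MG had 0.307 and 0.273.

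Among the other inner centromere genes, Cenpk, Cenpl and Cenpq were higher in C57MG than in both other lines. Without C57MG replicate 2, the call of Cenpl against BC44 was lost (adjusted p = 0.0798). Cenpk had 10.1 and 11.8 RPKM in C57MG against 5.76 and 6.80 in BC44 and 4.77 and 4.39 in HC11. Cenpb, which binds a satellite DNA box, was the most abundant core gene in BC44 and HC11 at 95.5 ± 5.64 and 94.0 ± 14.3 RPKM, against 66.4 ± 7.22 in C57MG (SD, n = 2 each). Its calls against C57MG (0.52 and 0.49) were lost without C57MG replicate 2 (adjusted p = 0.0504 and 0.0666), and that of BC44 also without BC44 replicate 1 (adjusted p = 0.0501). Cenpp was the largest difference of this group between BC44 and HC11, with 10.9 and 11.2 RPKM against 7.34 and 6.47 (0.61, SE 0.13, adjusted p = 0.00708). Cenpu, of the same platform, was lower in BC44 (4.48 and 4.74 RPKM) than in HC11 (6.49 and 7.16) and C57MG (6.79 and 6.08), and both calls were lost without BC44 replicate 1 (adjusted p = 0.0537 and 0.0567), the latter also without C57MG replicate 1 (0.0945). Its exons overlap Primpol on the opposite strand over 26.7% of their length. Cenpc1, Cenph, Cenpo and Cenpw passed in no comparison. Cenpo was the least abundant core gene in each line, at 2.27 to 2.35 RPKM.

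The Ndc80 complex had the largest shift in one direction of the role groups compared between HC11 and C57MG, with a median of -1.14 over its subunits. All 4 subunits were higher in C57MG than in HC11 and passed, and 3 of 4 passed as higher in C57MG than in BC44. Of all genes, 70.5% and 71.7% passed in these comparisons, and 33.2% and 34.1% passed as higher in C57MG. Nuf2 (ENSMUSG00000026683) had 31.1 and 32.8 RPKM in BC44, 30.1 and 32.2 in HC11, with 80.1 and 80.8 in C57MG. Both C57MG libraries were far above the other 4, and BC44 and HC11 overlapped. The C57MG mean was 2.52 times that of BC44 (-1.31, SE 0.08, adjusted p = 3.73e-06) and 2.58 times that of HC11 (-1.34, SE 0.08, adjusted p = 3.72e-06). Nuf2 is the partner with which Ndc80 forms the microtubule-binding end of the complex.

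Ndc80 had 26.2 and 28.1 RPKM in BC44, 22.5 and 23.9 in HC11, while C57MG had 43.9 and 48.5. Its differences from C57MG were -0.75 in BC44 and -0.96 in HC11 (adjusted p = 0.000156 and 4.47e-05). Spc25, of the inner end that docks on the kinetochore, had 14.9 and 15.7, 9.73 and 9.81, and 24.0 and 27.6 RPKM in BC44, HC11 and C57MG. The 3 lines did not overlap, and each comparison passed (0.60, -0.71 and -1.31, the largest adjusted p being 0.00194). Spc24, the partner of Spc25, broke the pattern. It had 47.7 and 46.8 RPKM in BC44 and 43.9 and 47.3 in C57MG, which overlapped (0.051, adjusted p = 0.609), and 28.2 and 25.4 in HC11, below both. The Spc24 difference between BC44 and HC11 was 0.80 (SE 0.08, adjusted p = 0.000247).

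Subunits that form one complex in the cell were thus present in different RNA proportions. Spc24 RNA was 3.21 and 2.98 times that of Spc25 in BC44, 2.90 and 2.59 times in HC11 and 1.83 and 1.72 times in C57MG. Nuf2 was at 1.19 and 1.17 times Ndc80 in BC44, 1.34 and 1.35 times in HC11 and 1.83 and 1.67 times in C57MG. The outer kinetochore motor Cenpe and the fibrous corona protein Cenpf were also highest in C57MG. Cenpf had 15.9 and 15.5, 15.2 and 13.9, and 23.7 and 29.8 RPKM and passed against C57MG in both lines (-0.72 and -0.83, adjusted p = 0.00095 and 0.00049). Cenpe had 24.3 and 30.2, 22.8 and 26.7, and 30.5 and 35.2 RPKM. Only its difference between HC11 and C57MG passed (-0.39, adjusted p = 0.0291), and not without C57MG replicate 2 (adjusted p = 0.17) or HC11 replicate 1 (adjusted p = 0.158). Between BC44 and C57MG (-0.26, adjusted p = 0.108) Cenpe passed without BC44 replicate 2 (-0.41, adjusted p = 0.0449).

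Condensins I and II share the Smc2 and Smc4 arms and differ in their other subunits, Ncapd2, Ncapg and Ncaph in the first and Ncapd3, Ncapg2 and Ncaph2 in the second. Ncapd2 (ENSMUSG00000038252) had 29.5 and 28.4 RPKM in BC44, 21.3 and 20.4 in HC11, with 54.7 and 59.6 in C57MG. No libraries overlapped between lines, and the C57MG mean was 1.98 times that of BC44 (-0.96, adjusted p = 2.6e-05) and 2.74 times that of HC11 (-1.41, SE 0.08, adjusted p = 3.93e-06). Its condensin II counterpart Ncapd3 was highest in BC44, at 25.9 and 25.9 RPKM against 17.2 and 15.2 in HC11, while C57MG had 17.5 and 19.1. It passed between BC44 and HC11 (0.65, adjusted p = 0.00115) and between BC44 and C57MG (0.48, adjusted p = 0.00235).

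The ratio of Ncapd2 to Ncapd3 RPKM was 1.14 and 1.09 in BC44, 1.24 and 1.34 in HC11, with 3.13 and 3.12 in C57MG. For the G and H subunits the order was turned, with the condensin II gene gaining in C57MG. Ncapg over Ncapg2 was 0.797 and 0.695 in BC44, 0.75 and 0.672 in HC11, while C57MG had 0.525 and 0.533, and Ncaph over Ncaph2 was 0.744 and 0.783, 0.595 and 0.625, and 0.438 and 0.452. Ncapg passed in no comparison, whereas Ncapg2 and Ncaph2 were higher in C57MG than in both other lines (largest adjusted p = 0.00239). The shared arm gene Smc4 was at 113.8 ± 8.08 RPKM in C57MG, 62.5 ± 7.21 in BC44 and 68.0 ± 3.67 in HC11 (SD, n = 2 each) and passed in both comparisons with C57MG, while Smc2 passed in none. Ncaph2 exons overlap Sco2 and Tymp on the opposite strand over 19.7% and 12.7% of their length.

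**Figure D4:**
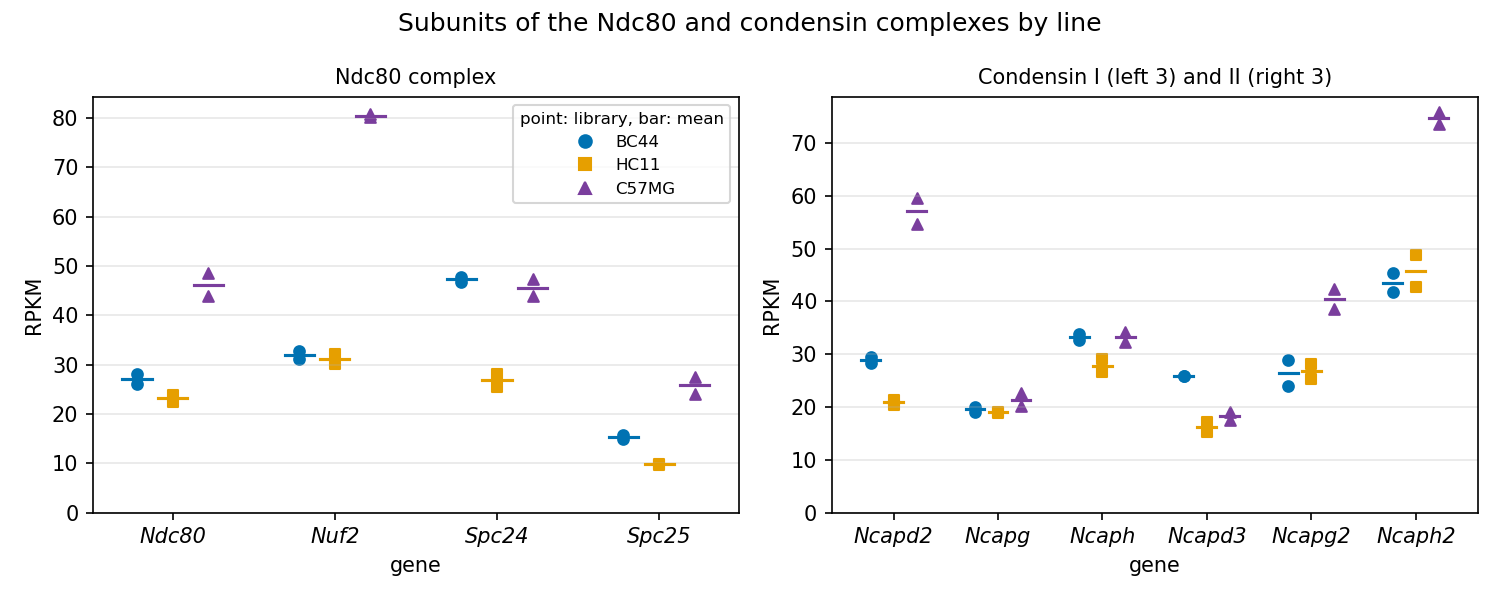
RPKM of the 4 Ndc80 complex subunits (left) and 6 condensin subunits (right), with 1 point per library and a bar at the mean of each line, on axes that start at 0. C57MG stands highest for Nuf2, Ndc80, Spc25, Ncapd2, Ncapg2 and Ncaph2 but not for Spc24 or Ncapd3.

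The Bub proteins, which form the checkpoint signal at unattached kinetochores, did not pass limma's adjusted threshold in any comparison, and those at an unadjusted p under 0.05 numbered 0 in each. Bub1 had 28.1 and 31.7 RPKM in BC44, 28.6 and 29.4 in HC11, with 26.7 and 30.7 in C57MG. Bub3 had 87.4 and 93.0, 87.7 and 86.8, and 86.1 and 93.2 RPKM, and Bub1b had 40.9 and 42.5, 40.0 and 33.5, and 40.6 and 45.7 RPKM. The libraries of the lines overlapped in 7 of these 9 comparisons. Between BC44 and HC11, 1 of the 3 genes did not overlap, where 73% of all genes did not. Between BC44 and C57MG it was 0 of 3 (87.9% of all genes), and between HC11 and C57MG 1 of 3 (86.2% of all genes). The fitted differences of Bub1 and Bub3 lay between -0.038 and 0.059 with SEs of 0.10 and 0.08, and the direction changed with the scaling for Bub3 between BC44 and C57MG and for Bub1 between HC11 and C57MG. Bub1b between HC11 and C57MG had the largest difference, -0.23 (adjusted p = 0.0874), and it passed without HC11 replicate 1 (-0.35, adjusted p = 0.0252).

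From a list of 19 other kinetochore and checkpoint genes, 9, 10 and 12 passed in the comparisons of BC44 with HC11, BC44 with C57MG and HC11 with C57MG, with 3, 3 and 7 of them higher in the line named first. The totals are 47.4%, 52.6% and 63.2% of the list, at or below the 47.7%, 71.7% and 70.5% of all genes. Those higher in the line named first are 15.8%, 15.8% and 36.8%, against 24.7%, 37.5% and 37.4% of all genes. Mad1l1, which holds Mad2 at the kinetochore, had 45.5 ± 1.26 RPKM in BC44, 31.1 ± 0.15 for HC11 and 18.1 ± 1.5 for C57MG (SD, n = 2 each) and passed in all 3. Zw10, which brings dynein to kinetochores, followed the same order, at 30.6 ± 1.78, 20.6 ± 1.39 and 14.5 ± 0.197 RPKM. Birc5 (survivin), which sits with Aurora kinase B in the chromosomal passenger complex, was at 125.0 ± 0.646 RPKM in HC11 against 46.8 ± 0.91 in BC44 and 59.5 ± 0.648 in C57MG.

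Aurora kinase genes were opposed between BC44 and HC11. Aurka, of the spindle poles, had 64.9 and 67.8 RPKM in BC44, 49.97 and 54.2 in HC11, while C57MG had 48.7 and 54.5. It was higher in BC44 than in HC11 (0.34, adjusted p = 0.0141) and C57MG (0.36, adjusted p = 0.00691). The first call was lost without BC44 replicate 2 (adjusted p = 0.0755) or HC11 replicate 1 (0.0615), and the second without C57MG replicate 1 (0.0607).

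Aurkb, the kinase of the passenger complex, had 32.2 and 31.7 RPKM in BC44, 51.5 and 45.1 in HC11, with 30.9 and 35.5 in C57MG. HC11 lay above both other lines, which overlapped (-0.58 for BC44 minus HC11, SE 0.10, adjusted p = 0.00271, and 0.53 for HC11 minus C57MG, SE 0.10, adjusted p = 0.00224). The ratio of Aurka to Aurkb RPKM was 2.01 and 2.14 in BC44, 0.97 and 1.20 in HC11, while C57MG had 1.58 and 1.53. Aurkb and its partner Birc5 were thus both highest in HC11, whereas Incenp and Cdca8, the scaffold and the other small subunit of that complex, did not pass between BC44 and HC11.

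Of the 4 Polo-like kinases, Plk3 and Plk4 passed in at least 1 comparison, and Plk1 and Plk2 in none, where 14% of all genes passed in none. The shares that passed were 25% between BC44 and HC11 and 50% in each comparison with C57MG, against 47.7%, 71.7% and 70.5% of all genes. Plk1, the mitotic member, had 78.9 and 82.5 RPKM in BC44, 68.2 and 73.0 in HC11, with 74.7 and 78.6 in C57MG and passed in no comparison. Plk4, which starts centriole duplication, had 12.1 and 12.7, 14.6 and 13.8, and 20.4 and 21.96 RPKM. It was higher in C57MG than in BC44 (-0.73, adjusted p = 0.000176) and HC11 (-0.55, adjusted p = 0.000907).

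Plk3 (ENSMUSG00000028680), a stress-response kinase, had 6.46 and 8.02 RPKM in BC44, 34.1 and 54.7 in HC11, while C57MG had 4.57 and 3.26. HC11 stood above all other libraries, at 6.13 times the BC44 mean and 11.3 times the C57MG mean, although its own 2 libraries differed by 1.60-fold. The log2 differences were -2.43 (SE 0.23, adjusted p = 0.000146) for BC44 minus HC11 and 3.18 (SE 0.23, adjusted p = 1.31e-05) for HC11 minus C57MG. The smaller difference between BC44 and C57MG (0.75, adjusted p = 0.0202) was lost without BC44 replicate 2 (adjusted p = 0.129) or C57MG replicate 2 (adjusted p = 0.124).

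Plk2, another stress-inducible member, had 27.7 and 29.96 RPKM in BC44, 21.2 and 42.2 in HC11, with 29.3 and 23.4 in C57MG. The 2 HC11 libraries enclosed all others, and Plk2 passed in no comparison. Without HC11 replicate 1 it passed as higher in HC11 than in BC44 (-0.54, adjusted p = 0.034) and than in C57MG (0.67, adjusted p = 0.0102). In HC11, replicate 2 was the higher library for both Plk2 and Plk3.

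Of the 8 Nek kinases, 7 passed between BC44 and C57MG, 5 of them higher in C57MG, where 71.7% of all genes passed and 34.1% were higher in C57MG. Between HC11 and C57MG 7 passed, 4 higher in C57MG and 3 in HC11, against 70.5% of all genes, with 33.2% and 37.4% in these directions. Among the latter 7, the call of Nek8 was lost without C57MG replicate 1 or 2 (adjusted p = 0.0814 and 0.178) or HC11 replicate 1 (0.0711) and in 5 other settings, and that of Nek4 without C57MG replicate 1 or 2 (0.0535 and 0.0634). Nek2, the centrosome-splitting kinase of the mitotic core, had 19.2 and 20.1 RPKM in BC44, 24.6 and 23.7 in HC11, while C57MG had 26.001 and 27.6. BC44 was below both other lines (-0.28 and -0.43, adjusted p = 0.0234 and 0.00199). The difference from HC11 was lost without BC44 replicate 1 (adjusted p = 0.1), BC44 replicate 2 (0.0534) or HC11 replicate 1 (0.0705).

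Nek9, Nek6 and Nek7 act in a chain at the spindle poles, with Nek9 upstream. Nek6 had 7.85 and 8.08 RPKM in BC44, 7.92 and 7.23 in HC11, with 21.6 and 20.6 in C57MG, 2.65 and 2.79 times the BC44 and HC11 means (adjusted p = 9.92e-06 and 8.87e-06). Nek7 was lowest in BC44 (27.6 and 31.3 RPKM), intermediate in HC11 (52.6 and 60.1) and highest in C57MG (78.6 and 85.5), with no overlap and all 3 comparisons passing (-0.91, -1.45 and -0.54, largest adjusted p = 0.00213). Nek9 itself had 13.6 ± 1.00, 14.7 ± 1.19 and 20.3 ± 0.798 RPKM (SD, n = 2 each). Relative to Nek9, Nek6 was at 0.611 and 0.566 in BC44, 0.509 and 0.521 in HC11, while C57MG had 1.09 and 0.986. Nek1 and Nek3 went the other way, with line means of 4.51, 6.02 and 2.36 RPKM for Nek1, a ciliary and DNA damage kinase, and 2.04, 2.17 and 0.982 RPKM for Nek3. The Nek3 call between BC44 and C57MG was lost without BC44 replicate 1 (adjusted p = 0.0592) or C57MG replicate 1 (0.0661). Nek8 was the least abundant member in BC44, at 0.878 and 0.801 RPKM, which corresponds to an estimated 67 and 73 reads.

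Of the members, the interphase kinesin Kif5c differed by the most between BC44 and C57MG and Kif26b between HC11 and C57MG, and between BC44 and HC11 Plk3 differed by more than any of them. Of the 16, 10 passed for BC44 and HC11 (62.5%, against 47.7% of all genes). Of these, 6 were toward BC44 (37.5% of the 16, against 24.7% of all genes). For BC44 and C57MG 13 passed (81.2%, against 71.7%), 6 toward BC44 (37.5%, the same as the share of all genes). For HC11 and C57MG 8 passed (50%, against 70.5% of all genes and 56.5% of the mitotic core). Of these, 3 were toward HC11 (18.8% of the 16, against 37.4% of all genes). Libraries did not overlap for 75%, 87.5% and 75% of the 16 in the 3 comparisons, against 73%, 87.9% and 86.2% of all genes. Members went in both directions, and the medians were 0.039, -0.20 and -0.049. With a minimum mean of 5 RPKM, which left 11 of them, the median for BC44 minus C57MG turned to 0.71, and without HC11 replicate 2 those for BC44 minus HC11 and HC11 minus C57MG were -0.013 and -0.0013. Without HC11 replicate 1 these 2 medians were 0.071 and -0.14, and without BC44 replicate 1 or 2 the former was 0.059 and 0.058. Their median absolute difference was 0.45, 0.77 and 0.53, against 0.295, 0.57 and 0.53 over all genes.

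Kif5c (ENSMUSG00000026764), a conventional kinesin heavy chain best known from neurons, had 19.7 and 18.8 RPKM in BC44, 5.62 and 4.79 in HC11, with 0.333 and 0.309 in C57MG. Its BC44 mean was 3.70 times that of HC11 (1.71, SE 0.11, adjusted p = 2.12e-05) and 60.1 times that of C57MG (3.94, SE 0.11, adjusted p = 2.71e-07). The C57MG values rested on an estimated 43 and 34 reads. They were 1.73% and 1.60% of the BC44 mean, while Krt5, abundant in BC44, was at 0.836% of its BC44 mean in C57MG replicate 1 and 0.00771% in replicate 2. Its paralogue Kif5b, the ubiquitous heavy chain, had 57.5 and 68.5, 58.2 and 63.7, and 28.6 and 29.0 RPKM, and was lower in C57MG than in BC44 (1.10, adjusted p = 3.91e-05) and HC11 (1.05, adjusted p = 5.58e-05). Kif5c made up 25.5% and 21.6% of the summed Kif5 RPKM in BC44, 8.81% and 7% in HC11, while C57MG had 1.15% and 1.06%.

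Partners of these motors were examined from a list of 12 light chains, adaptor and dynein genes, of which 4, 9 and 8 passed in the 3 comparisons (33.3%, 75% and 66.7%, against 47.7%, 71.7% and 70.5% of all genes). The light chain Klc3 was at 16.1 ± 2.65 RPKM in BC44, 12.6 ± 4.16 for HC11 and 0.958 ± 0.199 for C57MG (SD, n = 2 each), and so was lowest in the line where Kif5c was lowest. Klc1 was highest in C57MG (40.8 ± 0.0509 RPKM, against 32.7 ± 1.27 in BC44 and 31.2 ± 1.08 in HC11).

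Kif26b, an atypical kinesin without ATPase activity that acts in cell adhesion and polarity, was highest where Kif5c was lowest. It had 18.4 and 14.8 RPKM in C57MG, 3.20 and 2.82 in BC44 and 0.695 and 0.321 in HC11. The C57MG mean was 5.51 times that of BC44 (-2.13, SE 0.16, adjusted p = 1.33e-05) and 32.7 times that of HC11 (-3.55, SE 0.16, adjusted p = 1.14e-06), where it rested on an estimated 189 and 67 reads. The BC44 level was 19.3% and 17.0% of the C57MG mean, while the mesenchymal marker Vim was at 0.609% and 1.98% of its C57MG mean in the same libraries. Kif26a, its paralogue, was highest in BC44 (13.9 and 14.6 RPKM, against 6.17 and 4.57 in HC11, with 4.67 and 4.62 in C57MG). Kif26b was 18.7% and 16.2% of the Kif26 sum in BC44, 10.1% and 6.56% in HC11, while C57MG had 79.8% and 76.1%, so the larger part of the pair was Kif26a in BC44 and HC11 and Kif26b in C57MG.

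In the Kif13 pair, which carry endosomal and membrane cargo, Kif13b had its largest share in C57MG, as Kif26b did, and its smallest in BC44, where Kif26b had its smallest in HC11. Kif13b had 1.01 and 0.859 RPKM in BC44, 2.35 and 2.22 in HC11, while C57MG had 7.74 and 9.34, with no overlap and all 3 comparisons passing (-0.76, -2.30 and -1.53, largest adjusted p = 0.00164). Kif13a had 13.7 and 15.9, 9.86 and 9.14, and 8.003 and 7.73 RPKM, highest in BC44. Kif13b thus made up 6.91% and 5.11% of the pair in BC44, 19.3% and 19.5% in HC11, while C57MG had 49.2% and 54.7%.

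In the Kif3 family of ciliary transport motors, Kif3c differed more than Kif3a and Kif3b did. Kif3a had 11.4 and 10.6, 15.2 and 11.6, and 14.0 and 13.9 RPKM in BC44, HC11 and C57MG and passed in no comparison. Between BC44 and C57MG (-0.32, adjusted p = 0.0559) it passed without HC11 replicate 1 (adjusted p = 0.0147) or HC11 replicate 2 (0.0144), and against HC11 it passed without HC11 replicate 2 (-0.44, adjusted p = 0.0199). Kif3b had 8.95 and 9.71, 14.1 and 12.8, and 13.5 and 14.1 RPKM, lower in BC44 than in both others (-0.49 and -0.52, adjusted p = 0.00481 and 0.00179). Kif3c, which can replace Kif3b in the heterodimer with Kif3a, had 1.99 and 2.30, 3.40 and 2.94, and 6.61 and 8.05 RPKM. It was 3.42 times higher in mean level in C57MG than in BC44 (-1.40, adjusted p = 3.98e-05) and 2.31 times than in HC11 (-0.997, adjusted p = 0.000288). Its smaller difference between BC44 and HC11 (-0.41, adjusted p = 0.035) was lost without any 1 of the 4 libraries, the adjusted p being 0.169 and 0.0709 without BC44 replicates 1 and 2 and 0.132 and 0.0505 without HC11 replicates 1 and 2. Antisense genes overlap 35.3% and 7.94% of the exonic bases of Kif3c, so its level is uncertain where strand was not used. Kifap3, the cargo adaptor of the Kif3 motor, was low in BC44 as Kif3b was, at 7.44 ± 0.225 RPKM against 15.5 ± 1.67 in HC11 and 16.7 ± 0.621 in C57MG (SD, n = 2 each).

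Kif1c, a fast vesicle motor, was the most abundant interphase kinesin in HC11. It had 51.0 and 53.4 RPKM in BC44, 73.8 and 61.0 in HC11, with 26.4 and 26.7 in C57MG, lower in C57MG than in BC44 (0.95, adjusted p = 8.82e-05) and HC11 (1.31, adjusted p = 1.81e-05). The difference between BC44 and HC11 (-0.36, adjusted p = 0.0226) was lost without BC44 replicate 1 (0.111), BC44 replicate 2 (0.0683) or HC11 replicate 1 (0.0739, all adjusted p). Kif1b, of mitochondria and synaptic vesicle precursors, was highest in BC44 (17.5 and 20.1 RPKM), and HC11 (10.8 and 10.9) and C57MG (10.7 and 11.3) overlapped. It was 25.5% and 27.3% of the pair in BC44, 12.7% and 15.1% in HC11, while C57MG had 28.9% and 29.8%.

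The Kif21 kinesins, which curb microtubule growth at the cell edge, were both highest in C57MG. Kif21a had 13.5 and 13.3, 13.3 and 10.6, and 20.9 and 22.05 RPKM, and Kif21b had 3.13 and 3.10, 1.86 and 1.18, and 5.02 and 5.201 RPKM. Both passed against C57MG in BC44 (-0.64 and -0.57) and in HC11 (-0.80 and -1.29, largest adjusted p of the 4 = 0.00753). Between BC44 and HC11 Kif21b passed (0.72, adjusted p = 0.00465) and Kif21a did not (0.16, adjusted p = 0.275), although it did without HC11 replicate 1 (0.31, adjusted p = 0.0421). Kif21a was the larger part of the pair in each library, from 80.6% to 90%. Kif16b, an endosome motor, passed only between BC44 and C57MG (-0.40, adjusted p = 0.0226), and not without BC44 replicate 1 or 2 (0.0669 and 0.104) or C57MG replicate 1 or 2 (0.0769 and 0.116). Kif7, a ciliary tip protein of Hedgehog signalling, and Kif24, which restrains cilium formation, passed in no comparison.

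**Figure D5:**
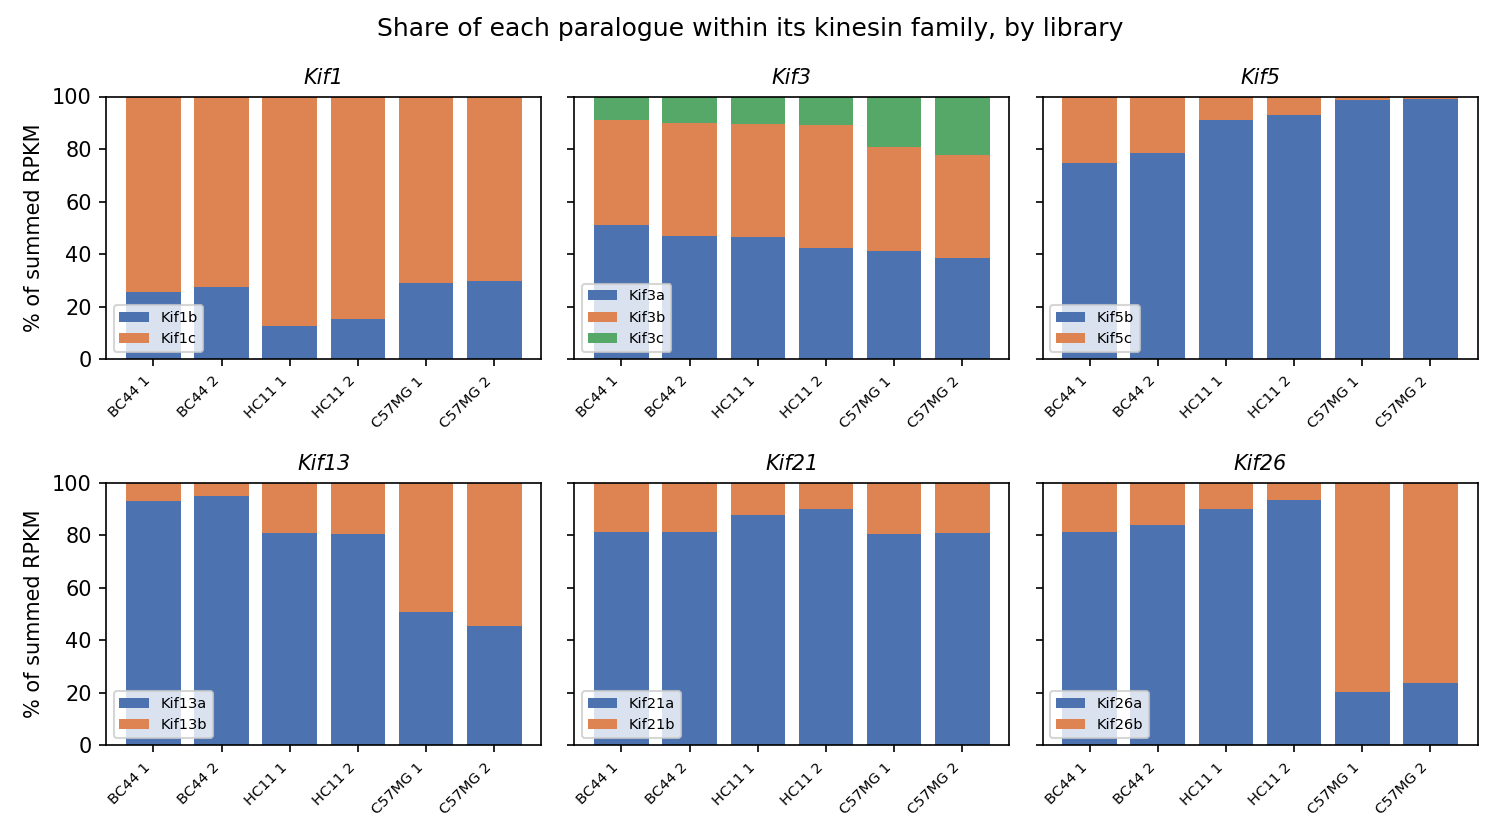
Percentage of the summed RPKM of each kinesin family held by each paralogue, in 6 libraries. In C57MG the Kif26b, Kif13b and Kif3c segments are larger than in either other line and the Kif5c segment is smaller.

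Cenpj, Cenpv, Kif1bp and Aurkaip1, placed neither in the mitotic core nor among the kinesins, were read apart. Cenpj, a centriole elongation protein, had 2.79 and 2.73 RPKM in BC44, 4.18 and 4.43 in HC11, with 4.91 and 6.60 in C57MG, lowest in BC44 (-0.83 against C57MG, adjusted p = 0.000942). Its difference from HC11 (-0.50, adjusted p = 0.02) was lost without BC44 replicate 1 or 2 (adjusted p = 0.0831 and 0.0912) or HC11 replicate 1 or 2 (0.0537 and 0.0837). Cenpv, a membrane-linked protein of the midzone and cilium, was lower in C57MG (6.97 and 8.49 RPKM) than in BC44 (13.5 and 12.5) and HC11 (13.3 and 9.44), and neither call held without C57MG replicate 1 (adjusted p = 0.0508 and 0.168). The call against HC11 was also lost without HC11 replicate 1 (0.147) or either BC44 library (0.0549 and 0.0548). Kif1bp, the kinesin-binding protein, was highest in C57MG (8.63 and 8.73 RPKM, against 4.44 and 5.01 in BC44 and 4.01 and 3.88 in HC11). Aurkaip1, a protein of the mitochondrial ribosome, was highest in BC44 (51.5 and 49.4 RPKM, against 42.5 and 38.6 in HC11, while C57MG had 34.3 and 35.1). Its call between BC44 and HC11 (0.31, adjusted p = 0.0162) was lost without BC44 replicate 1 (0.28) or HC11 replicate 2 (0.24). That between HC11 and C57MG (0.22, adjusted p = 0.043) was lost in 9 of 15 settings. Among these were quantile scaling (0.18, adjusted p = 0.0938), median-ratio scaling (0.20, adjusted p = 0.0546) and limma without the mean-variance trend (adjusted p = 0.0665).

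Cell cycle genes outside the members were read from lists chosen with earlier results known. Of 21 other mitotic genes, 5 passed for BC44 and HC11, 4 of them toward BC44 (19% of the list, against 24.7% of all genes). Against C57MG, 17 passed for BC44 and 15 for HC11, and 15 were higher in C57MG in each. All genes passed at 47.7%, 71.7% and 70.5% in the 3 comparisons, and were higher in C57MG at 34.1% and 33.2%. The minus-end kinesin Kifc1 had the largest difference of that list, at 34.1 ± 3.87 RPKM in C57MG, 10.96 ± 0.678 in BC44 and 9.79 ± 0.0318 in HC11 (SD, n = 2 each). Mki67, the proliferation marker, was at 103.1 ± 10.5 RPKM in C57MG, 78.5 ± 2.89 in BC44 and 67.3 ± 3.54 in HC11. Of 24 DNA replication genes, 8, 17 and 16 passed in the 3 comparisons (33.3%, 70.8% and 66.7%). Of these, 5, 7 and 6 were higher in the first line (20.8%, 29.2% and 25% of the list, against 24.7%, 37.5% and 37.4% of all genes). Of 11 cell-cycle inhibitors, 8 passed in each (72.7%). Cdkn2a was at 114.8 ± 5.17 RPKM in BC44, 71.0 ± 0.439 for HC11 and 12.9 ± 0.359 for C57MG, and Cdkn1a at 54.1 ± 6.83, 22.5 ± 7.84 and 26.4 ± 3.15. Among 12 genes of the MuvB and FoxM1 regulators, 3, 5 and 5 passed (25%, 41.7% and 41.7%). Foxm1 passed in none (28.7 ± 2.03, 32.9 ± 1.62 and 31.5 ± 2.02 RPKM), and Mybl2, the gene for B-Myb, was higher in HC11 (36.5 ± 1.67) than in BC44 (26.6 ± 2.47) and C57MG (14.9 ± 0.185). The part of proliferation in the differences of the members was not tested.

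Replicates also differed along the mitotic core. In C57MG, 41 of the 46 core genes were higher in replicate 2 than in replicate 1, with a median of 0.13 (log2). In BC44 34 of 46 were, with a median of 0.067. Of all 10759 genes tested, 5114 in C57MG and 5805 in BC44 were higher in replicate 2, with medians of -0.0025 and 0.017. In HC11, 21 of 46 core genes were higher in replicate 2, as were 5091 of the 10759 genes. There 14 of the 16 interphase kinesins were higher in replicate 1, against 5600 of the 10759 genes. The median of these kinesins was -0.20 for replicate 2 minus replicate 1, against -0.011 over all genes. These shifts were smaller than the differences from C57MG of Nuf2, Spc25, Ncapd2 and Cenpm and of similar size to the medians of the core between lines.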

How the data were processed

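Poly(A) RNA of 3 cell lines, 2 libraries each, was sequenced with a directional kit, per the labels' protocols. Reads were aligned with STAR to mm9, per the submitters' processing notes, with versions and the counting tool not given in the sources used here. The authors deposited RPKM values, 1 row per gene for 11417 genes, without read counts.

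RPKM was transformed to log2(RPKM + 1) and fitted with limma 3.58.1 (R 4.3.3, mean-variance trend) over all 6 libraries in one model. The fit used the 10759 genes with at least 1 RPKM in at least 2 libraries, and 658 genes were not tested. P-values were adjusted by the Benjamini-Hochberg method over all of them, with a threshold of 0.05. Fold changes on this scale understate those of low genes. The fit was tested on simulated data. Summaries used Python 3.11.15, pandas 2.3.3 and numpy 2.4.6. Depth was estimated from the spacing of values up to 0.15 RPKM with GENCODE M21 exon lengths, 74.3% to 80.2% of these values lying within 0.15 of a whole read where 30% would by chance. As the files use mm9 and the reference GRCm38, no coordinates are given for gene bodies, and those of promoters are from GRCm38.

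The rule for members reads symbols only, but the rule and the gene lists were chosen with earlier results of these data known. Genes given in full were a set list of 18, the Kif1, Kif3, Kif5, Kif13 and Kif21 paralogues, and, per comparison and role group, the gene with the largest difference that passed without overlap. Other genes, the Kif26 pair and the ratios among them, were picked with their values in view. Other pseudocounts, filters, scalings and variance models were tried, as were a block for the replicate number and fits without each library in turn.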

Additional observations from a re-analysis of the deposited data

How the results depend on the processing

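Alternatives were run on 177 differences, each that passed and, for genes given in full, those that did not. Of the 126 that passed, 87 passed under each of the 15 alternatives, 39 were lost in at least 1 and 0 changed sign. Of the 51 that did not pass, 10 passed in at least 1 and 22 changed sign. Leaving out 1 library gave 20 to 27 members called between BC44 and HC11, 41 to 51 between BC44 and C57MG and 36 to 44 between HC11 and C57MG (30, 50 and 46 with all libraries), and 3762 to 4776, 6554 to 7944 and 6274 to 7404 of all genes. The count of 20 came from leaving out BC44 replicate 1. The medians of the core then ranged from 0.03593 to 0.1228, -0.1912 to -0.05774 and -0.2518 to -0.1245, and those of the interphase kinesins from -0.01254 to 0.07098, -0.256 to -0.1355 and -0.1403 to -0.001252. With a minimum mean of 5 RPKM, 64 members were tested and the interphase median between BC44 and C57MG became 0.7134 over 11 genes, the filter having removed the low members.

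Small differences that did not pass changed sign. Quantile scaling gave -0.0409 for Bub1 and -0.008479 for Aurka between HC11 and C57MG, and median-ratio scaling gave -0.003268 for Aurka there and -0.01933 for Bub3 between BC44 and C57MG. Leaving out 1 library gave ranges across 0, for which the cause was not tested. Between BC44 and HC11 these were Bub1 (-0.04245 to 0.1259), Cenpe (-0.01992 to 0.2801), Cenpv (-0.02836 to 0.4212), Kif2c (-0.02338 to 0.1179), Kif5b (-0.08177 to 0.1672), Nuf2 (-0.01269 to 0.08212) and Plk2 (-0.5365 to 0.4244). Between BC44 and C57MG they were Aurkb (-0.1482 to 0.04757), Bub1 (-0.0399 to 0.1575), Bub1b (-0.1291 to 0.03847), Bub3 (-0.04722 to 0.06481), Cenpp (-0.2823 to 0.05576), Kif20a (-0.06009 to 0.05146), Plk2 (-0.02273 to 0.2902) and Spc24 (-0.00154 to 0.1031). Between HC11 and C57MG they were Aurka (-0.06542 to 0.09309), Bub1 (-0.08162 to 0.1157), Bub3 (-0.09366 to 0.01837), Kif1b (-0.06207 to 0.008931), Kif3a (-0.2453 to 0.1169), Kif3b (-0.09629 to 0.02938) and Plk2 (-0.2906 to 0.6703).

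Libraries of the lines share replicate numbers. Over genes, the deviations of same-numbered libraries correlated at r = 0.354 for BC44 and HC11, so these lines shared part of their deviations. For BC44 and C57MG r was -0.0387, and for HC11 and C57MG 0.0379. The main fit did not take the numbers as pairing in any of the 3 pairs of lines. A replicate block gave 30, 54 and 47 members called and 5350, 7875 and 7721 of all genes, with the same medians. Under it Cenpe and Kif23 passed between BC44 and C57MG (adjusted p = 0.0201 and 0.0355), and so did Kif3a (0.0319). Between HC11 and C57MG Cenpj passed (0.0425) and Nek8 did not (0.0583).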
